A study of Marchantia polymorpha with 12 samples.

Results

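Thalli of the liverwort Marchantia polymorpha (a thallus is its flat, haploid plant body) were compared at 14 days between the Mpknox2-1 Mpez1-2 double mutant (3 libraries) and the Mpknox2-1 single mutant (3 libraries). These 6 libraries are the second of 2 experimental sets, chosen by their titles from the 12 libraries of the series, and they were the only ones used. Polyadenylated RNA was sequenced with a directional kit, and the 3 libraries of a genotype are labelled as biological replicates. Plants of both genotypes carry Mpknox2-1 and were grown in the same way on agar in continuous white light. The comparison therefore asks what Mpez1-2 changes in plants that already carry Mpknox2-1, and no plants without Mpknox2-1 enter it. What each allele does to its gene, the sex of the plants and the number of independent lines behind the libraries are not given in the labels.

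MpE(z)1 is a homologue of Enhancer of zeste, the subunit that carries the enzyme activity of PRC2. This Polycomb complex methylates a lysine of histone H3, a mark that holds genes silent through cell divisions, and PRC1, a second Polycomb complex, acts on the marked chromatin. In flowering plants and in liverworts PRC2 is known for keeping genes of other organs and life stages off, and MpKNOX2 encodes a homeodomain transcription factor of the TALE class that acts in the diploid generation of mosses.

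Each library has 2 tables with 19441 genes and 89262 copies of transposable elements (TEs). The first table was read as the sense strand and the second as the opposite strand, since the second held 1.66% to 1.76% of all gene counts. Gene counts per library in the first tables were 7949703 to 9453281 in the double mutant and 9918693 to 10509741 in Mpknox2-1. Levels are in CPM, counts per 1000000 of each library's scaled total, as mean ± SD of 3 libraries. "Rose" and "fell" below mean an edgeR adjusted p under 0.05 in the double mutant against Mpknox2-1, and SE is the standard error of a log2 fold change.

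The double mutant libraries resembled each other more than the controls did, and 1 control stood apart for a small group of genes. In Mpknox2-1 replicate 1, 30 genes lay at least 4-fold above both other controls, against 0 genes in replicates 2 and 3 and 1, 2 and 1 genes in the double mutant libraries. Among them were genes of lipoxygenases, which make oxylipins, of chalcone synthase type enzymes and of a polyphenol oxidase. MpLOX4 had 288, 328 and 355 counts in the double mutant, against 1770, 234 and 131 in Mpknox2-1. MpPPO31 had 227, 323 and 305 counts in the double mutant, against 149, 11 and 5 in Mpknox2-1. MpDIR39, a dirigent gene, had 434, 457 and 598 counts against 216, 29 and 28. Of these 30 genes, 29 were tested and 1 passed. Without that control 20 of the 29 rose, 3 fell and 6 did not pass, with log2 fold changes of 1.00 for MpLOX4, 5.31 for MpPPO31 and 4.29 for MpDIR39. Over all genes, 2714 rose and 2254 fell without it. Among the lists described below, its removal changed a count of 3 or more by over 1.5 times for the fallen bHLH genes (6), the fallen pentatricopeptide repeat genes (10) and the risen expansin genes (8).

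MpE(z)1 transcripts were reduced but present. The gene (Mp5g18040) had 165, 217 and 204 counts in the double mutant, against 392, 344 and 416 in Mpknox2-1, so that every double mutant library lay below every control. That is 22.0 ± 1.76 CPM in the double mutant and 37.8 ± 3.17 CPM in Mpknox2-1 (log2 fold change -0.78, SE 0.10, edgeR adjusted p = 3.36e-05). Its paralogue MpE(z)2 had 27, 20 and 21 counts in the double mutant and 0 in each control, at least 26.0-fold higher. A fold of this kind, used wherever the controls had no count, is taken against a floor of 3 counts over the 3 libraries and covers counting error only. MpE(z)3 had 0 counts in all 6 libraries, and MpKNOX2 had 3, 8 and 4 counts in the double mutant against 0 in the controls, too few to be tested.

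Other Polycomb genes split into those that were silent in the controls and those that were expressed in both genotypes. MpRING1B3 and MpRING1B1, named for the RING finger subunit of PRC1, had 25, 39 and 27 counts and 12, 11 and 12 counts in the double mutant, against 0 in every control. They were at least 34.8-fold and at least 13.4-fold higher. Of the 10 genes in the PRC2 and Polycomb list 8 were tested, of which 3 rose and 1 (MpE(z)1) fell. Among all 12744 tested genes 20.4% rose and 17.4% fell. The 4 that did not pass were expressed in both genotypes. MpFIE, the WD40 subunit of PRC2, had 14.8 ± 1.28 CPM in the double mutant and 16.4 ± 0.883 CPM in Mpknox2-1, with an edgeR adjusted p of 0.384. MpLHP1, named for a reader of the PRC2 mark in Arabidopsis, had 35.4 ± 2.24 and 37.8 ± 5.40 CPM with an adjusted p of 0.506. MpRING1A and MpBMI1, both of PRC1 type, had log2 fold changes of -0.09 (SE 0.15) and 0.12 (SE 0.11).

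The rises were far larger than the falls. Of 12744 tested genes 2602 rose and 2213 fell, but 1337 rose by at least 1 log2 unit (10.5%) and only 111 fell as far (0.871%). The median log2 fold change was 1.05 among risen genes, -0.38 among fallen genes and -0.0038 over all tested genes. Of the risen genes 339 rose by at least 4 log2 units (2.66%). Genes that rose by at least 1 log2 unit held 6.69%, 6.25% and 6.74% of all gene counts in the double mutant, against 1.25%, 1.21% and 1.18% in Mpknox2-1. Those shares did not overlap. In whole thalli, more transcript per cell and more cells of a type that expresses a gene cannot be told apart.

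The direction of the calls differed with level, taken as the mean over all 6 libraries, double mutant included. Of 126 tested genes below 1 CPM, 61.1% rose and 1.59% fell. Of 3142 genes with a mean of 1 to 10 CPM, 32.8% rose and 4.84% fell. Genes silent in the controls pass the filter only through the double mutant. Small falls are also hard to call at low counts, and the median called fall at 1 to 10 CPM was -0.86. Both bear on the shares at low levels. Of 7598 genes at 10 to 100 CPM, 15.2% rose and 17.8% fell. Of 1878 genes at 100 CPM or more, 18.1% rose and 37.5% fell, and the median fall there was -0.32 on the log2 scale. The scale of the fit bears on small falls of abundant genes, since the adjustment that sets the libraries equal assumes that most genes do not change.

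**Figure D1:**
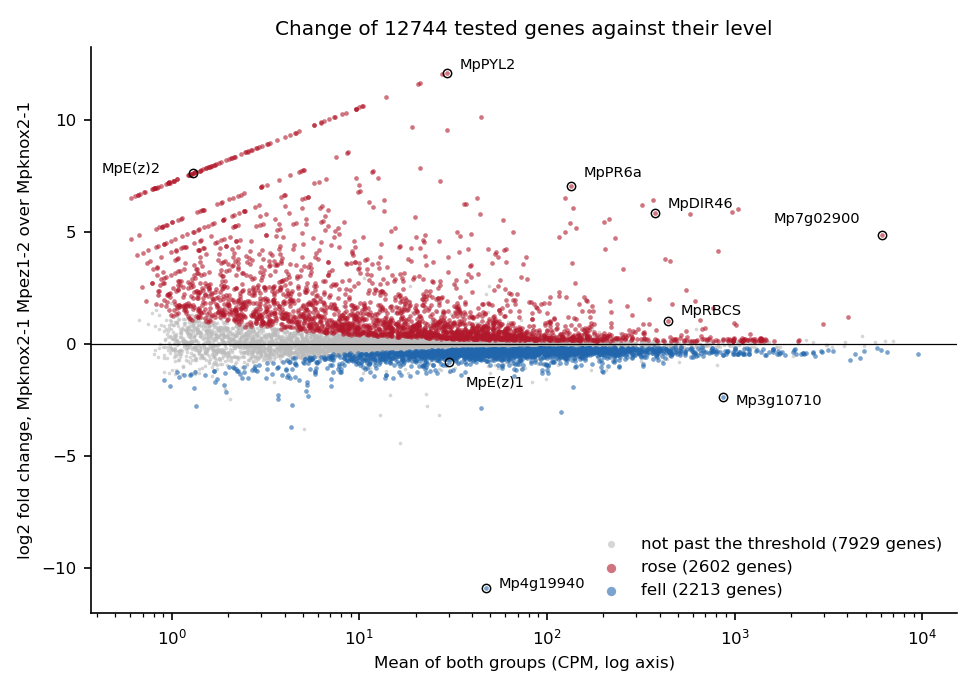
Log2 fold change (double mutant over Mpknox2-1, vertical axis) against the mean of both groups in CPM (horizontal log axis) for 12744 tested genes, red where they rose, blue where they fell and grey otherwise. Points far above 0 outnumber points far below it. The upper diagonal line of points holds genes with 0 counts in all 3 controls, whose fitted fold depends on a prior count and is no estimate of its size.

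A small group of genes was silent in every control, and of the 2602 risen genes 103 had no control count. Of these, 102 genes had at least 10 counts in each double mutant library, while 0 genes had no count in the double mutant and at least 10 in each control. All 102 were tested and rose, which their choice makes likely because they pass the low-count filter through the double mutant libraries alone. Their median level in the double mutant was 3.38 CPM and the highest was 58.4 CPM. Only 30 of the 102 have a symbol. More widely, 3694 genes had 0 counts in the controls, and 1255 of these had at least 1 count in the double mutant, against 398 genes with counts in the controls alone.

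Regulators of transcription were among the genes that were silent in the controls. MpR2R3-MYB19, of the R2R3 MYB family, had 459, 514 and 493 counts in the double mutant and 0 in each control, at least 561-fold higher. MpBZR3, whose relatives in flowering plants respond to brassinosteroids, had 340, 382 and 397 counts against 0, at least 428-fold higher. Both genes held nearly the same level in all 3 double mutant libraries. Mp3R-MYB6 and Mp3R-MYB4, named for MYB proteins with 3 repeats, had 48, 54 and 77 counts and 45, 42 and 62 counts against 0. MpASLBD1 of the LOB domain family (41, 39 and 55 counts), MpBHLH25 (29, 56 and 57 counts), MpBHLH8 (12, 15 and 16 counts) and MpNAC10 (23, 20 and 24 counts) had 0 counts in every control as well. MpWRKY4 had 27, 33 and 32 counts against 0, 1 and 0. The ratio of the summed counts was 106, and its 95% counting interval ran from 18.5 to 4219.

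Most transcription factor genes did not move as far. Of 41 tested MYB genes (51 in the list) 10 rose and 1 fell, with a median log2 fold change of -0.01. Among bHLH genes 14 of 38 tested members rose and 3 fell, and MpBHLH37 stood at 26.7 ± 1.22 CPM in the double mutant and 0.428 ± 0.306 CPM in Mpknox2-1. Of 33 tested AP2/ERF and WRKY genes, families with many stress-response regulators, 15 rose (45.5%) and 3 fell, with MpERF12 at 64, 46 and 74 counts against 1, 1 and 2. In the homeobox list 4 of 17 rose and 4 fell. MpBELL1, whose family pairs with KNOX proteins, had 66, 74 and 54 counts against 3, 2 and 1, a log2 fold change of 5.13 (SE 0.40). MpBELL4 had 16, 12 and 16 counts against 10, 4 and 2, and its call (log2 fold change 1.64, edgeR adjusted p = 0.0225) was lost with DESeq2 and in 4 of the 6 fits with a library left out. In the remaining list of other transcription factors 30 of 148 rose (20.3%), close to the 20.4% of all tested genes, and 20 fell.

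Of 15 tested abscisic acid genes 4 rose (26.7%) and 2 fell (13.3%), with a median log2 fold change of -0.06. These shares lie near the 20.4% risen and 17.4% fallen of all tested genes. MpPYL2, of the abscisic acid receptor family, had 503, 502 and 541 counts in the double mutant and 0 in each control, at least 592-fold higher. MpPYL4 had 24, 47 and 25 counts against 1, 0 and 0, 110 times as many when summed over libraries (interval 19.3 to 4400). The most abundant receptor gene of the list, MpPYL1, had 108 ± 8.09 CPM in the double mutant and 87.4 ± 4.17 CPM in Mpknox2-1 (log2 fold change 0.30, SE 0.07, edgeR adjusted p = 0.00395). Downstream of the receptors, the kinase genes MpSNRK2A and MpSNRK2B fell by 0.21 and 0.28 on the log2 scale.

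Of 26 tested auxin genes 8 rose (30.8%) and 1, MpncIAA, fell (3.85%), beside 20.4% and 17.4% of all tested genes. The median log2 fold change of the list was 0.09. MpPIN3, of the PIN family of auxin efflux carriers, had 77.0 ± 5.41 CPM in the double mutant and 8.73 ± 2.34 CPM in Mpknox2-1 (log2 fold change 3.14, SE 0.15, edgeR adjusted p = 1.60e-07). MpPIN4 had 121 ± 15.6 and 45.4 ± 4.27 CPM (log2 fold change 1.41), and MpPIN2 and MpPIN1 rose by 0.64 and 0.30. The receptor gene MpTIR1, the response factor genes MpARF1 and MpARF2 and the repressor gene MpIAA did not pass, with log2 fold changes of 0.12, 0.04, -0.04 and -0.01. MpGH3A, of the family that conjugates auxin to amino acids, had 826, 921 and 1087 counts in the double mutant and 2643, 883 and 706 in Mpknox2-1, with replicate 1 again the highest control.

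**Figure D2:**
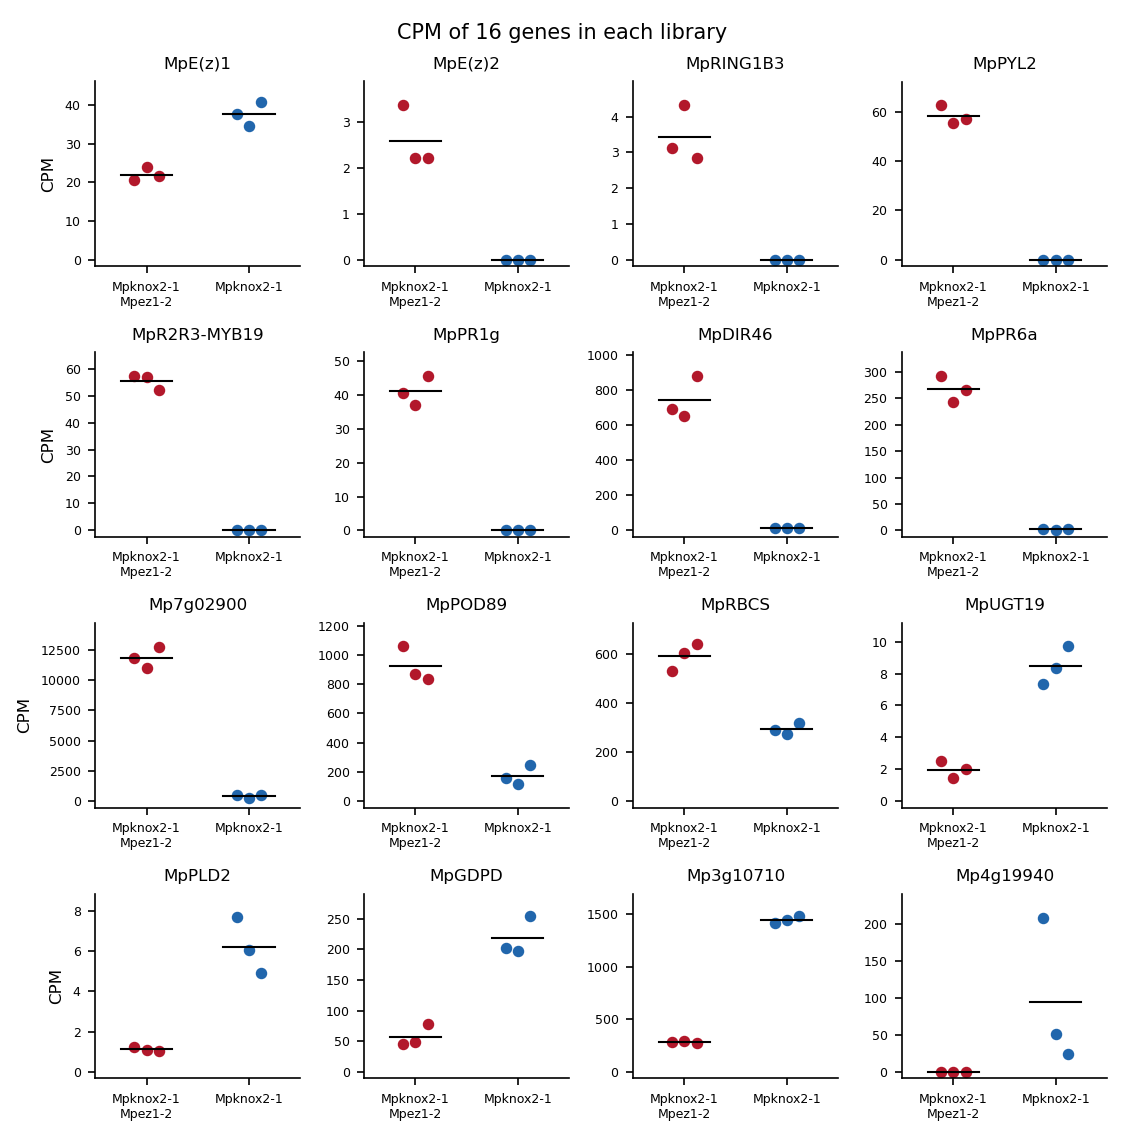
Level in CPM (vertical axis, starting at 0) of 16 genes in the 3 double mutant libraries (red, left) and the 3 Mpknox2-1 libraries (blue, right), with the mean as a bar. No panel has overlapping groups, and in Mp4g19940 the 3 controls differ several-fold among themselves.

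Defence-type genes rose more often than any other list with at least 10 tested members. The pathogenesis-related list holds PR1, PR4, PR5 and PR6 genes, whose products in flowering plants are secreted proteins, chitin-binding proteins, thaumatin-like proteins and proteinase inhibitors. Of its 29 genes 27 had a count and 19 were tested, of which 18 rose and 1 fell, with a median log2 fold change of 4.59 beside -0.0038 over all tested genes. MpPR1g had 326, 334 and 432 counts against 0, at least 418-fold higher. MpPR1l had 132, 141 and 191 counts against 0, 1 and 0. MpPR6a had 2343, 2207 and 2522 counts against 28, 9 and 23, or 267 ± 24.1 CPM in the double mutant and 1.96 ± 0.935 CPM in Mpknox2-1 (log2 fold change 7.08, SE 0.21).

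Several of these genes were abundant. MpPR1o reached 444 ± 80.2 CPM in the double mutant, against 16.3 ± 8.05 CPM in Mpknox2-1. MpPR6c reached 420 ± 45.3 CPM against 8.75 ± 5.62 CPM, and MpPR5b 342 ± 23.7 CPM against 91.2 ± 21.2 CPM. MpPR4 had 1208, 1237 and 1407 counts against 100, 95 and 106 (log2 fold change 3.88, SE 0.08, edgeR adjusted p = 5.88e-13). Only MpPR5a among the tested members fell, with 16.7 ± 1.53 CPM in the double mutant and 25.9 ± 2.95 CPM in Mpknox2-1 (log2 fold change -0.64). The 8 members with a count that were not tested had at most 13 counts in any library.

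Dirigent genes, whose products steer the coupling of phenolic radicals, include some of the largest rises in CPM. Of 59 genes 52 were tested, of which 34 rose (65.4%) and 1 fell, with a median log2 fold change of 1.18. MpDIR46 had 5558, 5909 and 8345 counts against 110, 148 and 127, or 742 ± 121 CPM in the double mutant and 12.7 ± 2.15 CPM in Mpknox2-1 (log2 fold change 5.87, SE 0.19). MpDIR48 and MpDIR47 had 729 ± 103 and 635 ± 78.2 CPM in the double mutant, against 8.35 ± 1.69 and 8.55 ± 1.66 CPM. These 3 genes are neighbours, and the sources do not say how reads that fit several copies were counted, so the split between them is uncertain. MpDIR62, MpDIR54 and MpDIR7 had 0 counts in every control and were at least 128-fold, 27.2-fold and 24.9-fold higher. MpDIR4 was the member that fell, with 92.1 ± 6.25 CPM in the double mutant and 142 ± 12.9 CPM in Mpknox2-1.

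Other lists of phenol and cell wall oxidation rose often too, beside 20.4% risen and 17.4% fallen among all tested genes. Among 41 tested polyphenol oxidase genes 23 rose and 4 fell. MpPPO15 had 44, 46 and 70 counts against 1, 1 and 2, a log2 fold change of 5.38 (SE 0.44). Class III peroxidases had 56 risen and 14 fallen genes among 120. MpPOD89 had 8513, 7895 and 7952 counts in the double mutant, against 1643, 1139 and 2512 in Mpknox2-1. That is the largest rise in CPM of any gene with a symbol, to 925 ± 120 CPM in the double mutant against 173 ± 67.5 CPM. Cupin and germin-like genes, a family that includes extracellular oxidases, had 30 risen and 5 fallen genes among 57. MpPR15f, MpPR15g and MpCupin51 had 0 counts in the controls and were at least 80.0-fold, 20.3-fold and 19.5-fold higher.

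Genes of specialised metabolism followed with more mixed counts, again beside 20.4% risen and 17.4% fallen among all tested genes. The terpene synthase list, which also holds cis-prenyltransferases such as MpCPT5, had 13 risen and 1 fallen gene among 22, and MpTPS6 had 74, 67 and 84 counts against 0. Of 92 cytochrome P450 genes 48 rose and 13 fell. MpCYP829-like43 had 504, 419 and 486 counts against 3, 4 and 3, a log2 fold change of 7.29 (SE 0.22). MpCYP716-like24 had 118, 109 and 116 counts against 0. Of 67 phenylpropanoid and flavonoid genes 26 rose and 9 fell, with MpPKS/CHS4, named for chalcone synthase, at 116, 140 and 134 counts against 0. UDP-glycosyltransferase genes, whose products attach sugars to small molecules, gave 14 rises and 6 falls among 30. MpUGT34 had 61, 62 and 48 counts against 0, whereas MpUGT19 had 20, 13 and 19 counts against 76, 83 and 99. Of 11 O-methyltransferase genes 6 rose and 2 fell. Of 29 dioxygenase genes 11 rose and 5 fell, and MpDOXC8 stood at 114 ± 16.5 CPM in the double mutant and 2.44 ± 1.98 CPM in Mpknox2-1.

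Immune receptor and oxylipin genes rose in smaller numbers, set beside 20.4% risen and 17.4% fallen among all tested genes. Of 22 genes named NBS-LRR, the class of intracellular immune receptors (the list also takes in MpTIR1), 9 rose (40.9%) and MpNBS-LRR15 fell. MpNBS-LRR6 had 73, 66 and 84 counts against 6, 5 and 2, a log2 fold change of 4.26 (SE 0.33). MpNBS-LRR20 stood at 20.4 ± 1.01 CPM in the double mutant and 3.02 ± 0.886 CPM in Mpknox2-1. Among 17 lipoxygenase and oxylipin genes 7 rose (41.2%) and 2 fell (11.8%). MpLOX16 had 355, 354 and 407 counts against 13, 21 and 16, while MpLOX6 had 132, 171 and 163 against 30, 3 and 1. The call for MpLOX6 (edgeR adjusted p = 0.0139) was lost without double mutant replicate 3. Receptor-like kinases gave 22 rises (29.3%) and 14 falls (18.7%) among 75, with a median log2 fold change of -0.01. MpWAK, named for wall-associated kinases, had 116, 118 and 118 counts against 4, 1 and 5.

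Genes linked to seeds and spores in other plants rose in part, beside 20.4% risen and 17.4% fallen among all tested genes. Late embryogenesis abundant (LEA) and oleosin genes, typical of drying tissue, gave 23 rises and 5 falls among 50 tested of 74 members. MpLEA-like40 had 44, 52 and 62 counts against 0, 0 and 1. MpOLEOSIN, for a protein of lipid droplets, had 52, 87 and 43 counts against 27, 26 and 25 (log2 fold change 1.42). Of 20 genes of sporopollenin type, for the outer wall of spores, 6 rose and 1 fell. The sporopollenin list had a median log2 fold change of only 0.06, and 2 members rose by at least 1 log2 unit. MpTKPR2, named for a tetraketide reductase of that pathway, had 16, 25 and 22 counts against 1, 5 and 2.

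**Figure D3:**
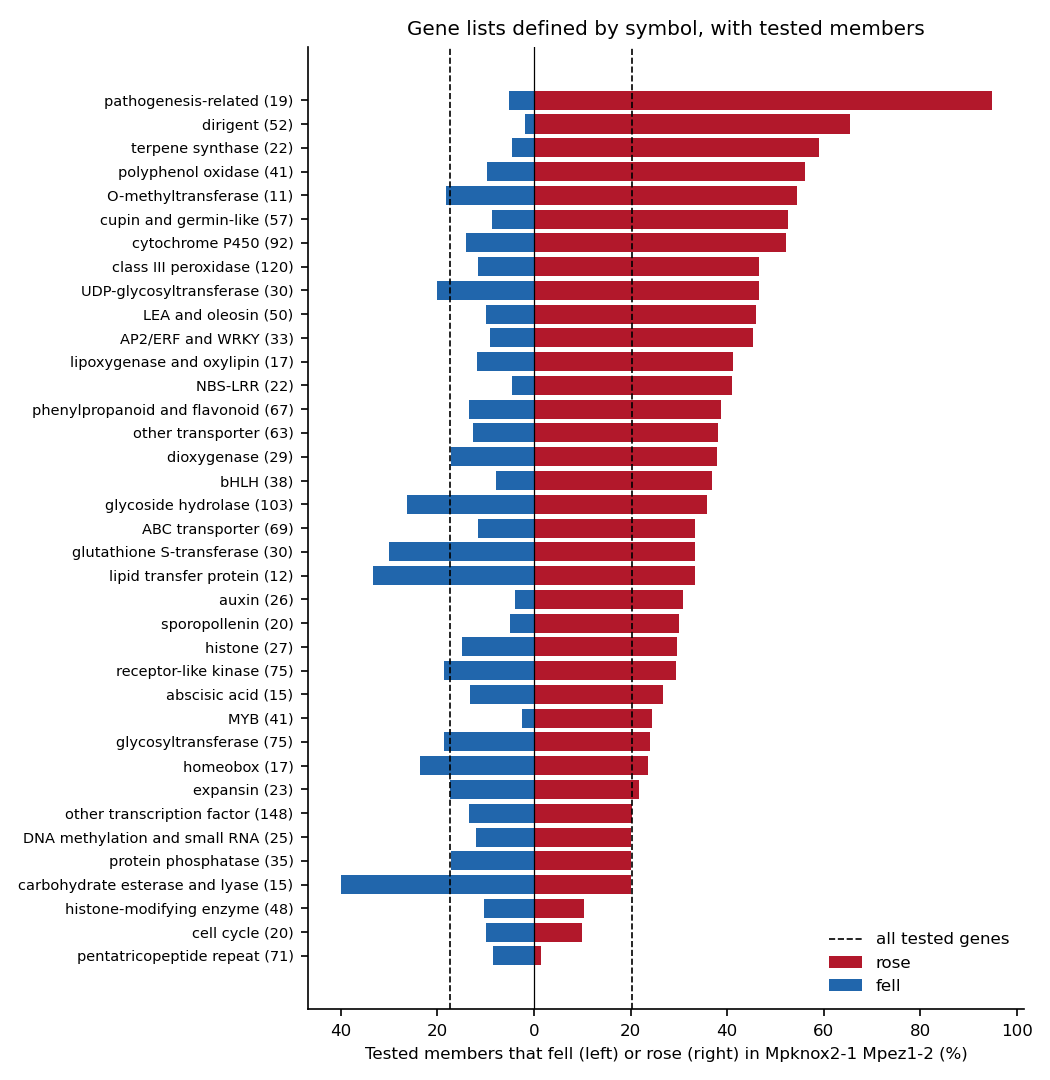
Percent of tested members that rose (red, right) or fell (blue, left) in each symbol list with at least 10 tested members, whose number stands in brackets. Dashed lines mark all tested genes (20.4% rose, 17.4% fell). Pathogenesis-related, dirigent and terpene synthase genes lie farthest to the right, and pentatricopeptide repeat genes the least.

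Other lists are set against the 20.4% risen and 17.4% fallen among all tested genes. Of 71 pentatricopeptide repeat genes, whose products act on organelle RNA, 1 rose and 6 fell. The cell cycle list had 2 risen and 2 fallen genes among 20, with MpCDKA, the cyclin-dependent kinase, at 50.0 ± 3.54 CPM in the double mutant and 64.2 ± 4.03 CPM in Mpknox2-1. Of 48 genes for histone-modifying enzymes 5 rose and 5 fell. Those that rose most were rare in the controls: MpHAT10, named for an acetyltransferase, had 82, 119 and 123 counts against 2, 1 and 2, and MpATXR5, named for a histone methyltransferase, had 73, 46 and 64 counts against 2, 1 and 4. Histones had 8 risen (29.6%) and 4 fallen genes among 27. MpH2A.W.1, of the family found in heterochromatin, had 13, 16 and 14 counts against 0, and MpH4b fell to 54.4 ± 2.71 CPM in the double mutant, against 80.1 ± 3.23 CPM in Mpknox2-1. Of 25 genes of small RNA pathways and DNA methylation 5 rose and 3 fell. MpDDM1, for a chromatin remodeller that keeps TEs silent in flowering plants, and MpAGO4a, of the Argonaute family, changed by -0.48 and -0.55, with adjusted p-values of 0.0247 and 0.0269. Both calls were lost with DESeq2 and in 5 and 4 of the 6 fits with a library left out.

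Of 103 glycoside hydrolase genes 37 rose (35.9%) and 27 fell (26.2%). Glycosyltransferase genes, with 18 of 75 risen (24.0%) and 14 fallen (18.7%), and expansin genes, with 5 of 23 risen (21.7%) and 4 fallen (17.4%), lay near the shares of all tested genes. Of 15 carbohydrate esterase and lyase genes 3 rose and 6 fell. The pectin methylesterase family gene MpCE8.3 had 227 ± 30.5 CPM in the double mutant and 422 ± 54.8 CPM in Mpknox2-1, while MpCE8.2 had 22.3 ± 1.28 and 4.25 ± 1.13 CPM. MpGH17.10, of the beta-glucanase family GH17, had 959, 891 and 862 counts against 80, 36 and 96, and MpGH17.27 of the same family had 11, 3 and 7 against 17, 19 and 43. Among 30 glutathione S-transferase genes 10 rose and 9 fell, and among 12 for lipid transfer proteins 4 rose and 4 fell. Transporters leaned upward, with 23 of 69 ABC transporter genes risen and 8 fallen, and 24 of 63 other transporter genes risen and 8 fallen. Of 35 protein phosphatase genes 7 rose and 6 fell, also near the shares of all genes. None of 6 heat shock and chaperone genes passed with edgeR or DESeq2, and at an unadjusted p under 0.05 edgeR gave 1 and DESeq2 gave 0.

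The deepest falls with a symbol that passed were moderate in size. MpBHLH4, picked after its values were seen, had 9, 17 and 13 counts in the double mutant, against 810, 86 and 74 in Mpknox2-1. Its log2 fold change of -4.41 did not pass (edgeR adjusted p = 0.106), and without control replicate 1 it fell by 2.43. MpPLD2, a phospholipase D gene, had 10, 10 and 10 counts in the double mutant, against 80, 60 and 50 in Mpknox2-1 (log2 fold change -2.45, SE 0.30, edgeR adjusted p = 1.95e-05). MpGDPD, for a glycerophosphodiester phosphodiesterase, had 57.5 ± 17.3 CPM in the double mutant and 218 ± 31.3 CPM in Mpknox2-1. MpCupin3 had 11, 7 and 12 counts against 29, 120 and 80, and its call was lost without any one of the double mutant libraries. MpBHLH2 had 23, 31 and 27 counts against 172, 88 and 77. MpCYP735-like, whose Arabidopsis relatives hydroxylate cytokinins, had 2.35 ± 0.624 CPM in the double mutant and 7.23 ± 0.804 CPM in Mpknox2-1. MpPPO7, MpPOD109 and MpPOD4 fell by 2.14, 1.68 and 1.54 on the log2 scale, although their families rose more often than they fell.

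Genes without a symbol gave the largest losses that passed, and those named here were picked after their values were seen. Mp4g19940 had 1, 0 and 0 counts in the double mutant, against 2170, 508 and 248 in Mpknox2-1. The ratio of its summed counts was 0.000393 (95% counting interval 1e-05 to 0.00219). The controls differed several-fold among themselves, the edgeR adjusted p was 0.0298, and the call was lost without each double mutant replicate in turn and without control replicate 2. Mp8g02780 had 5, 3 and 8 counts against 51, 108 and 84. Mp3g10710 had 2317, 2629 and 2647 counts against 14707, 14385 and 15070, or 286 ± 6.08 CPM in the double mutant and 1449 ± 32.6 CPM in Mpknox2-1 (log2 fold change -2.34, SE 0.05).

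By absolute level, 1 transcript outweighed all others. Mp7g02900 had 95013, 99585 and 120916 counts in the double mutant, against 4981, 2519 and 5057 in Mpknox2-1, or 11873 ± 876 CPM and 410 ± 136 CPM (log2 fold change 4.85, SE 0.35). It was the most abundant gene of every double mutant library. The next rise in CPM was that of Mp2g07490, which stood at 5639 ± 341 CPM against 2446 ± 598 CPM. Mp5g21660 stood at 2062 ± 157 CPM against 31.8 ± 7.78 CPM, and Mp2g07510 at 3837 ± 132 CPM against 2081 ± 516 CPM. A group with neighbouring identifiers also rose, with Mp1g22380 at 1902 ± 269 CPM against 32.3 ± 8.57 CPM, Mp1g22360 at 1538 ± 128 against 87.1 ± 18.9, and Mp1g22370 beside them with a log2 fold change of 3.70. None of these has a symbol in the reference used.

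Several abundant genes with symbols fell by less than 1 log2 unit. MpPIP2, an aquaporin gene, had 2884 ± 68.3 CPM in the double mutant and 3436 ± 62.0 CPM in Mpknox2-1. The actin genes MpACTIN7 and MpACT1 fell by 0.46 and 0.35 on the log2 scale, and MpAVP3, named for the vacuolar proton pyrophosphatase, fell by 0.42. MpRBCS, the small subunit of Rubisco, rose, with 592 ± 55.6 CPM in the double mutant and 293 ± 23.7 CPM in Mpknox2-1 (log2 fold change 1.01, SE 0.08). The chlorophyll synthesis genes MpCHLI1/2-like and MpCHLD fell by 0.41 and 0.34.

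Risen genes lay next to each other in many places. In the order of the reference annotation, where genes that were not tested are passed over, 99 runs of at least 4 consecutive risen genes held 527 genes. In that order 2548 of 12544 tested genes rose, so most risen genes lay outside such runs. With so many risen genes some runs would arise in any order, and how many was not tested. The longest had 12 members, and in 31 runs every member rose by at least 1 log2 unit. Counting untested genes as breaks left 47 runs. Tandem copies of a family are included, and reads could be shared between such copies.

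The 5 longest runs differ in content. The first, on chromosome 5 from Mp5g02440 to Mp5g02640, holds the chitinase-type genes MpGH19.11 and MpGH19.13, the peroxidase genes MpPOD60 and MpPOD61 and the cupin genes MpCupin79 and MpCupin80. Mp5g02620 changed most there, with 279 ± 31.9 CPM in the double mutant and 7.64 ± 5.30 CPM in Mpknox2-1, and MpGH19.13 had 99.5 ± 2.98 and 13.5 ± 1.57 CPM. Its first member, Mp5g02440, had overlapping groups and lost its call in 7 alternative fits. The next run, on chromosome 3 from Mp3g09140 to Mp3g09250, has 11 genes with MpNBS-LRR5, MpNBS-LRR6 and the transporter gene MpNPF9. Mp3g09190 had 524, 561 and 616 counts there, against 54, 34 and 25.

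The third run, also on chromosome 3, Mp3g18470 to Mp3g18570, has 10 genes with the terpene synthase gene MpMTPSL2, MpCPT5 and MpPAL-like1. Its largest member by fold, Mp3g18480, had 101, 130 and 109 counts against 3, 3 and 5. The fourth, Mp2g01710 to Mp2g01820, has 9 genes without symbols, all of which rose by at least 2.92 log2 units, with a median of 3.40. The fifth, on chromosome 7 from Mp7g13070 to Mp7g13180, also has 9 genes, 5 of which (MpGH17.20 to MpGH17.23 and MpGH17.25) belong to the beta-glucanase family GH17, and its median log2 fold change was 1.20.

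Shorter runs held some of the strongest changes. On chromosome 8 the 8 genes from Mp8g18610 to Mp8g18700 had a median log2 fold change of 7.87. Because 3 of them had no count in any control, the median was 6.24 with those at their lower bound. MpPYL2 is the seventh of 8 genes from Mp2g18120 to Mp2g18200, beside 4 MpCYP829-like genes and MpCupin39, all of which rose by at least 1.08. The 7 genes from Mp3g24130 to Mp3g24210 include MpDIR48, MpDIR47, MpDIR46, MpDIR45, MpDIR44 and MpDIR64, and none rose by less than 2.39. A run of 7 genes on chromosome 6, Mp6g02960 to Mp6g03150, holds MpLEAL3 and 5 MpLEA-like genes and ends with the linker histone gene MpH1 at 0.22.

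The share of risen genes differed between chromosomes. On chromosome 5, 398 of 1557 tested genes rose (25.6%) and 15.8% fell, and 21 of the genes silent in the controls lay there. On chromosome 1, 331 of 2208 rose and 18.9% fell, with 5 of the silent genes. Chromosomes 2, 3, 4, 6, 7 and 8 lay between, with 17.7% to 23.2% risen. On identifiers of no numbered chromosome 17 of 46 tested genes rose (37.0%). Of 10 tested genes on the V chromosome, the male sex chromosome, 2 rose: MpVg01223 had 241, 229 and 230 counts against 55, 54 and 71, and MpVg01235 had 19, 10 and 14 against 0, 0 and 3. MpVg01240, with 21946 to 36257 counts per library, did not pass (log2 fold change -0.05). This gene held most V counts of every library, such as 25877 of 27411 in double mutant replicate 1. Of 146 V identifiers only 21 to 30 had a count in any given library, and the labels do not give the sex of the plants.

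On the opposite strand fewer genes could be tested, and rises again outnumbered falls. In the second tables, of 1549 tested genes, 151 rose (9.75%) and 60 fell (3.87%). With library sizes taken from the second tables themselves the numbers were 128 and 113, so the balance between rises and falls depends on the scale. The fallen genes numbered 15, 24 and 26 without double mutant replicates 1, 2 and 3, and 39, 29 and 89 without control replicates 1, 2 and 3. Of the 151 that rose, 50 also rose in the first table, 31 did not pass there, 5 fell and 65 were too low there to be tested. Reads assigned to the wrong strand would follow the sense level, so each gene's opposite-strand change was set against its own first-table change. In that test of 1088 genes the balance moved to the opposite strand in 51 (4.69%) and away from it in 41 (3.77%).

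Several shifts to the opposite strand lay together in a group of polyphenol oxidase genes on chromosome 6. MpPPO48 had 48, 64 and 67 opposite-strand counts in the double mutant, against 1, 1 and 0 in Mpknox2-1. Its first-table counts were 44, 54 and 28 in the double mutant and 49, 76 and 39 in Mpknox2-1, with no call. The change on the opposite strand exceeded that in the first table by 6.62 log2 units (SE 0.62, edgeR adjusted p = 4.70e-24). MpPPO11 had 37, 39 and 47 opposite-strand counts against 0, 0 and 1, and MpPPO47 had 44, 31 and 42 against 0, 0 and 2. MpPPO10 had 42, 45 and 41 against 0, 3 and 1. None of these 4 genes passed in the first tables, and each was above 10 counts there in every library. Between them MpPPO55 had 0 or 1 opposite-strand count in every library and 153, 163 and 158 first-table counts, against 263, 238 and 208 in Mpknox2-1.

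**Figure D4:**
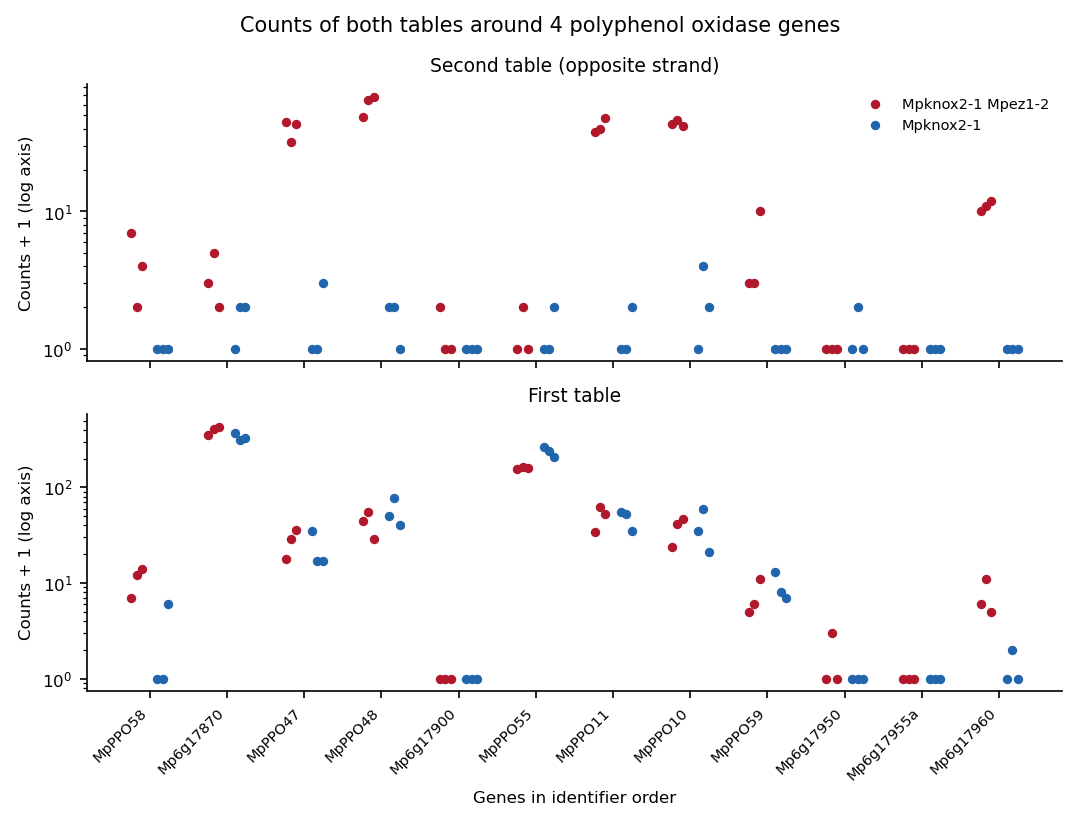
Counts plus 1 (log axis) in each library for 12 genes in identifier order around MpPPO47, MpPPO48, MpPPO11 and MpPPO10, in the second table (upper panel) and the first (lower panel), with the double mutant in red and Mpknox2-1 in blue. In these 4 genes the groups are apart in the upper panel and overlap in the lower one.

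Other genes gained opposite-strand counts from silence. Mp5g16410, the gene before the run that holds MpDIR65, MpDIR61, MpDIR42 and MpDIR41, had 41, 74 and 74 opposite-strand counts against 0, and 25, 29 and 57 first-table counts against 8, 29 and 20. Its strand difference was 7.95 log2 units (SE 0.97). MpCupin53 gained on both strands, with 11, 22 and 18 opposite-strand counts against 0 and 20, 30 and 34 first-table counts against 6, 10 and 10. Mp6g20370 had 38, 55 and 38 opposite-strand counts against 0 in Mpknox2-1, and 0 first-table counts in all 6 libraries. MpLOX4 and MpLOX8 also moved to the opposite strand, by 3.36 and 3.24 log2 units, but their first-table counts are those raised in control replicate 1.

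Most shifts away from the opposite strand came with a rise in the first table. Of the 41 genes that moved away from the opposite strand, 30 rose in the first table and 8 fell in the second. A shift away means that the opposite-strand change lies below the first-table change, so a first-table rise is itself part of such a shift. The share with a first-table rise is therefore partly set by the definition. Whether it exceeds what the definition alone would give was not tested. Mp8g04260 had 243, 199 and 402 first-table counts against 10, 20 and 16, while its opposite-strand counts were 30, 36 and 55 against 47, 59 and 52. Mp3g10710, which fell in the first table, also fell on the opposite strand, with 3, 4 and 3 counts against 54, 31 and 44. The difference between its changes in the 2 tables did not pass (edgeR adjusted p = 0.233).

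TE copies rose far more often than they fell. In the first tables TEs held 0.550%, 0.496% and 0.588% of counts in the double mutant, against 0.352%, 0.338% and 0.293% in Mpknox2-1. Of 89262 copies 7124 had a count and 315 were tested, of which 149 rose (47.3%) and 9 fell (2.86%). Most copies lie near 0 counts, and one that is silent in the controls is tested only when it is high in the double mutant. The share that rose depends on this filter, here as for families and in the second tables. Without the filter 248 of the 7124 copies rose. Summed over families, 83 of 161 tested families rose (51.6%) and 6 fell (3.73%). The few falls were unsteady, with 5 fallen copies without control replicate 1, 16 without control replicate 3, and 2 fallen families without any 1 of double mutant replicates 1 and 3 and control replicate 1. As with genes, 19 copies had 0 counts in all controls and at least 10 in each double mutant library, and 0 copies showed the reverse. The strand that each table gives for a TE copy is not stated in the sources used here, and whether reads that fit several copies were counted is not stated either.

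A single Copia copy, of a class of LTR retrotransposons that move through RNA, made up most of the change of its class. TE_homo_57228 of family TE_00000508 had 1028, 1188 and 1195 counts in the double mutant and 0 in each control, at least 1306-fold higher. At 129 ± 2.64 CPM it accounted for most of the Copia sum, which was 176 ± 6.64 CPM in the double mutant and 24.0 ± 2.03 CPM in Mpknox2-1. It held 94.3% of the double mutant counts of its family, which has 25 copies. TE_homo_57229, a Copia copy of family TE_00000721, had 43, 48 and 30 counts against 0, and TE_homo_57245, a DTC DNA transposon copy, had 64, 58 and 55 against 0. In the unassigned family TE_00000137 the copies TE_homo_15628 and TE_homo_15611 had 191, 181 and 202 counts and 39, 30 and 30 counts, again against 0.

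Classes differed in how far their sums moved. DTM elements, the Mutator-type DNA transposons, stood at 367 ± 8.10 CPM in the double mutant and 190 ± 33.5 CPM in Mpknox2-1, and 24 of 48 tested copies rose. Repeats of no assigned class stood at 2418 ± 177 and 1018 ± 66.6 CPM, with 90 of 184 copies risen. Gypsy LTR copies, the largest named class, gave 17 rises and 2 falls among 47, and their sum of 2263 ± 305 CPM in the double mutant and 1910.5 ± 230 CPM in Mpknox2-1 overlapped between the groups. For such sums an exact permutation test over 3 and 3 libraries cannot give a p below 0.10, and none is reported. Among the copies that fell, TE_homo_68265 and TE_homo_68206 of family TE_00000028 had identical counts of 17, 14 and 8 against 39, 45 and 33, so they may not be independent.

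The second tables held more TE counts, 366632 to 468112 per library in the double mutant and 404953 to 458795 in Mpknox2-1. Of 1204 tested copies 502 rose (41.7%) and 50 fell (4.15%), and of 225 families 78 rose (34.7%) and 12 fell (5.33%). The sum over all copies, 46087 ± 3149 CPM in the double mutant and 42082 ± 2193 CPM in Mpknox2-1, overlapped between the groups. Of the copies that rose in the first tables, 8.72% also rose in the second, and these 13 copies were 2.59% of those that rose in the second.

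Some of the largest changes of single copies in the second tables were in a DTM family. In family TE_00000413 the copies TE_homo_77387, TE_homo_77394 and TE_homo_77396 had 400, 379 and 342 counts, 240, 256 and 248 counts, and 119, 95 and 92 counts in the double mutant, all against 0 in the controls. TE_homo_77393 of that family had 608, 592 and 610 counts against 2, 1 and 0. Their identifiers are close in number, but whether that means neighbouring positions is not given. DTM MITEs, short elements without coding capacity, stood at 83.2 ± 5.33 CPM in the double mutant and 20.4 ± 3.02 CPM in Mpknox2-1, with 8 of 12 tested copies risen. Among families, TE_00000149 had 109, 174 and 230 counts against 0, at least 196-fold higher, and TE_00000312 had 1436, 1019 and 1186 counts against 25, 42 and 23. The DTM family TE_00000981 fell, with 685 ± 26.3 CPM in the double mutant and 943 ± 172 CPM in Mpknox2-1 (log2 fold change -0.46, SE 0.11), and 91.9% of its double mutant counts came from 1 copy.

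**Figure D5:**
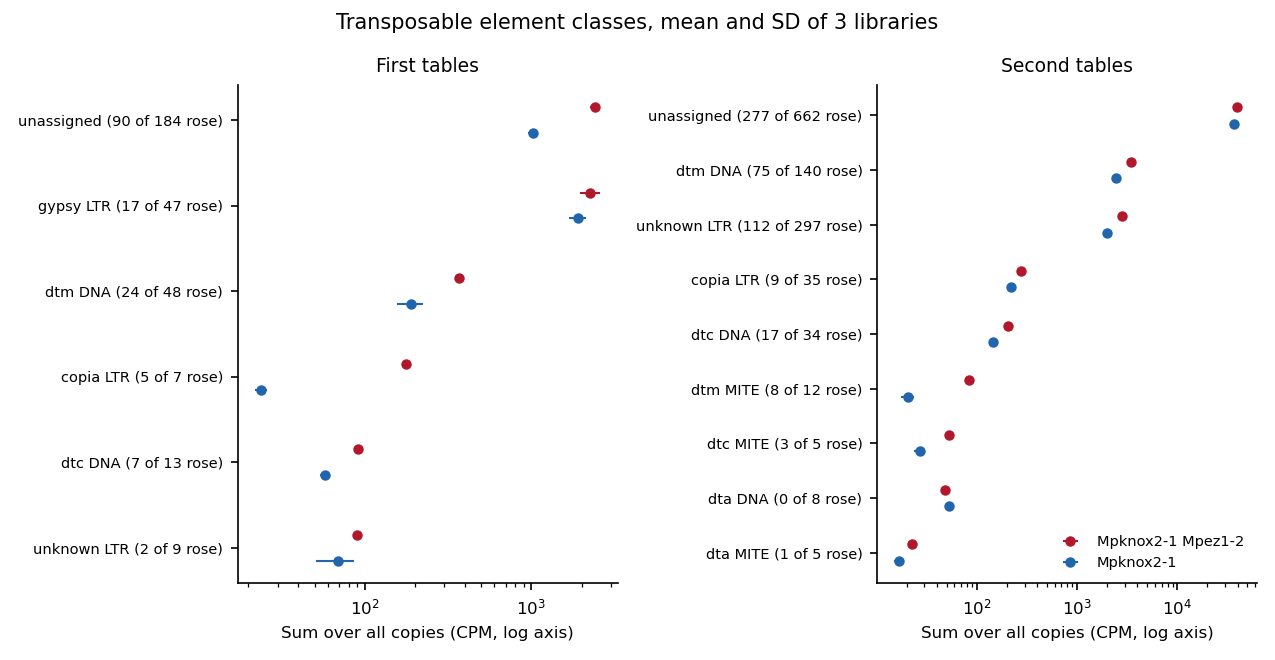
Sum over all copies of each TE class with at least 5 tested copies, as mean and SD of 3 libraries in CPM (log axis), in the double mutant (red, above) and Mpknox2-1 (blue, below), for the first tables (left) and second tables (right). Brackets give how many tested copies rose. The gap between the groups is widest for Copia in the first tables and for DTM MITEs in the second.

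Markers of particular cell types showed no single pattern, and their part in the results above was not tested. The oil body list, for the secretory cells that store terpenes, had 3 of 4 markers risen, beside 20.4% of all tested genes. Its sum was 93.1 to 99.8 CPM in the double mutant and 63.4 to 74.0 CPM in Mpknox2-1. MpC1HDZ and MpERF13, which regulate these cells, rose by 0.58 and 0.52 on the log2 scale. The call for MpERF13 lay close to the threshold (edgeR adjusted p = 0.0487). MpMYB02 of the same list did not pass (log2 fold change 0.15, edgeR adjusted p = 0.469). MpNOP1, which is needed for air pores, had 51.5 to 55.7 CPM in the double mutant and 71.3 to 75.8 CPM in Mpknox2-1. Of the 2 gemma and gemma cup markers MpKAR fell by 0.54, and MpGCAM1, with 26, 42 and 49 counts against 34, 3 and 5, did not pass. Both together summed to 33.4 to 40.1 CPM in the double mutant and 44.6 to 52.2 CPM in Mpknox2-1. In the rhizoid and epidermis list, with 46.6 to 49.0 CPM in the double mutant and 58.3 to 63.0 CPM in Mpknox2-1, MpWIP fell by 0.41, MpRSL1 did not pass and MpFRH1 was too low to test.

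Most markers of the male germ line list were rare. MpBNB, which specifies the initials of sexual organs, had 10, 14 and 4 counts in the double mutant and 0 in each control, too few to be tested. MpDUO1 and MpGCS1 of the sperm lineage did not pass, with log2 fold changes of -0.52 and 0.03, and the protamine gene MpPRM had 2 counts in 1 double mutant library and 0 elsewhere. MpFGMYB stands in the same list although it promotes female differentiation in Marchantia. It had 47, 60 and 53 counts against 6, 11 and 13 (log2 fold change 2.60, edgeR adjusted p = 1.78e-05). An antisense transcript is known to repress this gene in male plants, and its opposite-strand counts here were 0, 4 and 1 in the double mutant and 0 in each control. The sum of the 7 genes in that list was 17.2 to 21.3 CPM in the double mutant and 12 to 14 CPM in Mpknox2-1. MpFGMYB, the only member that rose, gave 5.59 to 6.63 CPM and 0.578 to 1.28 CPM of these sums. The gap between the sums is therefore no measure of the male markers. The egg cell and archegonium list summed to 97.4 to 112 CPM in the double mutant and 121 to 125 CPM in Mpknox2-1. Nearly all of that sum is MpRKD, which acts in egg cells and fell by 0.29, with 99.9 ± 7.65 and 122 ± 1.60 CPM. The other members did not fall. MpBELL4 rose, with the unsteady call given above. MpBELL3, with 14, 10 and 6 counts against 1, 1 and 6, and MpKNOX1, with 11, 6 and 8 against 7, 4 and 6, were too low to test.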

How the data were processed

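For each library the authors deposited 2 tables of raw counts, which hold genes and TE copies together. Reads were processed with Trim Galore and STAR, per the submitters' processing notes, which give no versions. Which counter and which build were used, and how multiply mapping reads were treated, is not given in the sources used here. From the deposited counts, genes and TE copies were fitted together with edgeR 4.0.16 in R 4.3.3 (filterByExpr with min.count 10 and min.total.count 15, TMM, robust glmQLFit, glmQLFTest, Benjamini-Hochberg adjustment within genes or within TE copies, threshold 0.05). Second tables used the sizes and factors of the first. The strand test fitted 12 columns with library, strand and strand by genotype terms. SE is the absolute log2 fold change over the square root of F. DESeq2 1.42.0 and other settings were alternatives. The fit was tested on simulated counts. Between replicates the chi-square divided by its degrees of freedom was 2.69 to 4.37 in the double mutant and 6.27 to 10.6 in Mpknox2-1, so no library was a repeat of another.

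Of the genes, 17624 matched a reference of assembly MpTak2_v7.1 by identifier number, and 3088 of these have a symbol. It was used for names and gene order. Genes named are the Polycomb genes, the largest changes with a mean of at least 1 CPM and no overlap between groups, up to 3 called genes per list, the longest runs and like choices for TEs and the opposite strand, plus genes said to have been picked after their values were seen. Members of PR, NBS-LRR, auxin, abscisic acid and LEA lists named beyond these were also picked afterwards. The libraries compared and the lists were chosen with earlier results of these data known. Counting intervals are exact at 95%.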

Additional observations from a re-analysis of the deposited data

How the results depend on the processing

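Across the alternatives (other size factors, TMM over genes alone, TMM over all features with a count, which was chosen after seeing the data, no or a stricter filter, DESeq2, a fit that was not robust and each library left out), counts of risen genes ran from 2198 to 3056 and of fallen genes from 1631 to 2665, each within 1.5 times of the 2602 and 2213 reported. No filter gave 248 risen TE copies, with 7124 tested. Leaving out 1 library in turn gave 5 to 16 fallen TE copies, 2 to 6 fallen TE families and 15 to 89 genes fallen on the opposite strand. Library sizes of the second tables gave 113 fallen genes and 90 fallen TE copies on that side. Of 176 tested named genes, 0 changed direction, and 53 of 2439 fits lost a call. The losses were most frequent for MpDDM1, MpABI5B, MpBELL4, MpAGO4a and genes at the ends of runs. Not every gene named above is among the 176. Mp4g19940, for example, is left out, and it passed in 11 of 15 settings, the main fit included. The labels do not say whether replicate numbers pair the samples. Same-numbered libraries had correlations of 0.0853, 0.0431 and 0.074, against at most 0.0183 for libraries of different numbers. With the replicate block 2630 genes rose and 2305 fell, 147 TE copies rose and 10 fell, and 128 genes rose and 42 fell on the opposite strand, and each library correlated best with its own number, as a hint only. MpDOXC28 and MpLOX6 lost their calls under the block. Depth limits what can be said of genes under about 10 counts.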
